A study of Mus musculus with 6 samples.

Results

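The genes described here are 4 chemokines that attract T cells. They are the 3 ligands of the receptor CXCR3, namely Cxcl9, Cxcl10 and Cxcl11, together with Cxcl16, the ligand of CXCR6. They were chosen by symbol among the 29595 genes of the deposited table, and all 4 were among the 17824 genes that passed the filter on low counts. The cells were TKPTS, a mouse kidney proximal tubule line. In the Hnf3a group (3 libraries) they carried pcDNA3.1-Hnf3a-Flag, a plasmid that overexpresses Flag-tagged HNF3α, the forkhead transcription factor encoded by Foxa1. In the pcDNA group (3 libraries) cells labelled WT carried the pcDNA3.1-Flag plasmid without the insert. RNA was collected 24 h after transfection in both groups, and the labels of these libraries give no cytokine or other stimulus. The share of cells that took up the plasmid is not given in the sources used here. No label says that the libraries of a group came from separate cultures, so p-values measure only the spread between these libraries, which may be technical.

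CXCL9, CXCL10 and CXCL11 are small secreted proteins induced by interferons, and in many cells by NF-κB as well. They bind CXCR3 on activated T cells and natural killer cells and draw these cells into inflamed tissue. CXCL16 is made differently, as a chemokine domain on a stalk anchored in the cell membrane. Proteases of the ADAM family release it as a soluble attractant, and the anchored form also binds oxidized lipoprotein. Injured kidney tubule cells are a known source of these chemokines.

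Foxa1 averaged 9.66 ± 0.259 FPKM with the empty plasmid and 304.6 ± 26.2 FPKM with the Hnf3a plasmid (mean ± SD, n = 3 each), where FPKM is fragments scaled to transcript length and library size. Total estimated counts lay between 60473818 and 71154667 per library. Of 11 markers of kidney tubule and epithelial cells analysed here, Cdh1, Epcam, Krt8 and Krt18 had group means over 100 FPKM and Pax8 about 29 FPKM, while Lrp2, Cubn and Hnf4a, which define the mature proximal tubule, were under 0.05 FPKM on average in both groups. Hnf3a replicates 2 and 3 stood apart from the other libraries. All 13 macrophage and dendritic cell markers were above the detection floor of 12 estimated counts in both of them, against 3 in Hnf3a replicate 1 and 4 to 5 in the pcDNA libraries. All 8 fibroblast markers were above it there, against 4 in Hnf3a replicate 1 and 1 to 3 in the pcDNA libraries. These are whole-culture samples, in which fewer cells of a type and less RNA per cell cannot be told apart.

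Cxcl9, Cxcl10 and Cxcl11 lie side by side on the minus strand of chromosome 5 in GRCm38, within 44139 bases. Cxcl9 (ENSMUSG00000029417) runs from 92321347 to 92328079, Cxcl10 (ENSMUSG00000034855) from 92346638 to 92348882 and Cxcl11 (ENSMUSG00000060183) from 92359544 to 92365485. Cxcl16 (ENSMUSG00000018920) occupies positions 70453983 to 70459984 of chromosome 11, also on the minus strand. Their longest coding transcripts in GENCODE vM21 have 4 exons for Cxcl9, 3 for Cxcl10, 4 for Cxcl11 and 5 for Cxcl16. GENCODE lists Cxcl11 transcripts both as protein coding and as polymorphic pseudogene, the latter a class whose reading frame is intact in some strains and broken in others, so its RNA level does not show whether protein is made. Genes on the opposite strand share exonic bases with 3 of the members. Art3 shares 133 bases with Cxcl10, the pseudogene Gm2673 shares 1582 with Cxcl11, and Zmynd15 shares 552 with Cxcl16. The use of strand in counting is not given in the sources used here, but these partners were low. Art3 averaged 0.246 FPKM, Gm2673 0.0011 FPKM and Zmynd15 1.80 FPKM in the pcDNA group.

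The promoters of Cxcl9 and Cxcl10 are shown because interferon and NF-κB elements near the start are what these genes are known for. Each run gives the 250 bases before the gene start in RefSeq's annotation of GRCm38.p6, read on the minus strand, at chr5:92328080-92328329 for Cxcl9 and chr5:92348890-92349139 for Cxcl10. Capitals mark matches to the patterns searched.
Cxcl9: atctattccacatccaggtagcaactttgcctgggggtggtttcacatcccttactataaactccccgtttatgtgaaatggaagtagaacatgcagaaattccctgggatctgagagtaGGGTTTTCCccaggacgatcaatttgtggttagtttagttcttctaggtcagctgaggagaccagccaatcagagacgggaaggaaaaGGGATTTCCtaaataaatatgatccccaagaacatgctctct
Cxcl10: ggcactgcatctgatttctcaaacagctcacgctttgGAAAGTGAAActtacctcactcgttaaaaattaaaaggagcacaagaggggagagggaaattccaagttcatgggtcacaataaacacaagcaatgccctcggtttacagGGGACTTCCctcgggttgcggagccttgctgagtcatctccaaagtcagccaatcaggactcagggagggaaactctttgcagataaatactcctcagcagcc
The core of the interferon-stimulated response element was searched as GAAA, any pair of bases and GAAA again. It was found in the Cxcl10 promoter, at positions -213 to -204 from the start (GAAAGTGAAA), and in 2.98% of all 32851 promoters of this length. NF-κB was searched as GGG, any pair of bases and TTTCC, with no match in either promoter (1.41% of all promoters), and as the shorter GGGNNTTCC, a pattern added after the promoters had been read. The shorter pattern matched Cxcl9 at -130 to -122 and at -42 to -34 and Cxcl10 at -103 to -95, and 4.98% of all promoters hold it. The forkhead patterns TGTTTAC (3.17% of all promoters) and TGTTTGC (4.30%) and the gamma-activated site TTCNNNGAA (7.02%) had no match in these windows. For every element only the patterns given were searched, so sites with other letters were not looked for. The stretch gggaaattcc in the Cxcl10 run, for example, matches neither NF-κB pattern and is not marked. All patterns were read on both strands. A match is a description of letters and not a measured binding site. The promoters of Cxcl11 and Cxcl16 were not analysed here.

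The question put to the data was whether HNF3α overexpression moved the RNA of these chemokines. All 4 stood lower in every Hnf3a library than in any pcDNA library. In edgeR's quasi-likelihood test with Benjamini-Hochberg adjustment over all genes, 3 of the 4 were past the threshold of 0.05. These were Cxcl11, Cxcl16 and Cxcl10, all lower in the Hnf3a group, while 3.17% of all tested genes passed (2.13% lower and 1.04% higher). Groups that do not overlap, with Hnf3a below pcDNA, were found for 8.70% of tested genes (19.0% in either direction), and 49.8% of tested genes had a negative log2 fold change, as all 4 members did. DESeq2 also put 3 of 4 past the threshold, in a fit where 819 genes passed (492 lower and 327 higher). With Hnf3a replicates 2 and 3 both left out, all 4 log2 fold changes stayed negative, from -1.84 for Cxcl9 to -0.089 for Cxcl10.

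**Figure D1:**
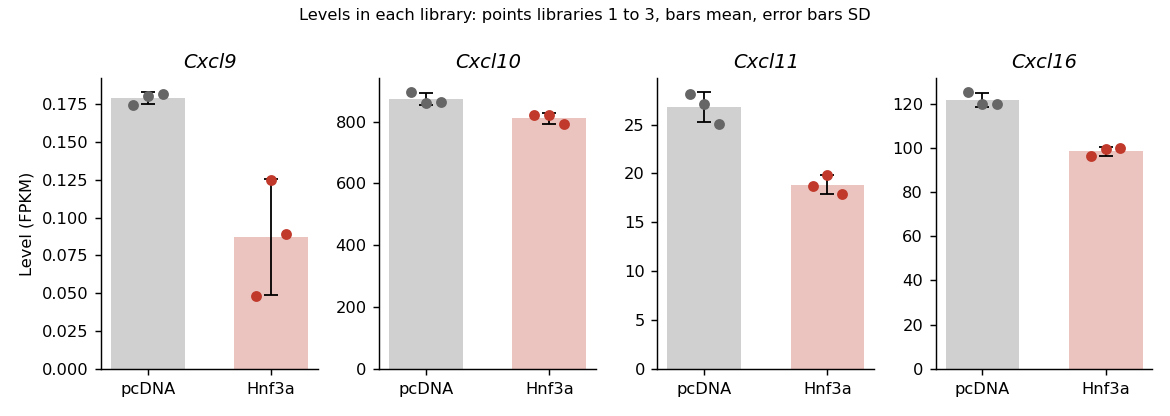
Level of each chemokine in FPKM, from 0, in the 3 pcDNA and the 3 Hnf3a libraries; points are libraries 1 to 3 from left to right, bars are group means and error bars are SD. Every Hnf3a point lies below every pcDNA point in all 4 panels, and the gap against the height of the bar is widest for Cxcl9 and narrowest for Cxcl10.

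The levels spanned several orders of magnitude. In FPKM, which is scaled per length, the order was Cxcl10, Cxcl16, Cxcl11 and Cxcl9 in every library, and no neighbours in this order overlapped. Cxcl10 stood 7.15 to 8.53 times over Cxcl16, and Cxcl16 4.42 to 5.57 times over Cxcl11. In the pcDNA group Cxcl10 ranked 22 and Cxcl16 334 by FPKM among the 17824 tested genes, while Cxcl11 ranked 2001 and Cxcl9 15278. Among the 3 CXCR3 ligands, Cxcl10 supplied 96.9% to 97.2% of the summed FPKM in the pcDNA libraries and 97.6% to 97.8% in the Hnf3a libraries. The sum itself was 886.5 to 923.2 FPKM in the pcDNA libraries and 809.2 to 840.9 FPKM in the Hnf3a libraries.

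Cxcl11, the CXCR3 ligand known for the highest affinity to that receptor, fell the most of the 3 called members. It was at 28.1, 27.1 and 25.1 FPKM in pcDNA replicates 1, 2 and 3 and at 18.7, 19.9 and 17.9 FPKM in Hnf3a replicates 1, 2 and 3. The 2 groups were separated by more than the range within either. The log2 fold change was -0.51 ± 0.0482 (SE), a level 30.0% lower in the Hnf3a group, and edgeR's adjusted p was 2.95e-05. By p-value Cxcl11 ranked 48 among all tested genes. It was past the threshold in all 17 alternative fits, with log2 fold changes from -0.56 to -0.48 and adjusted p of at most 0.0103.

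Cxcl16 was the second most abundant member and the second most strongly lowered of the 3. The pcDNA replicates 1, 2 and 3 held 125.1, 119.7 and 119.7 FPKM, and the Hnf3a replicates 96.15, 99.39 and 99.95 FPKM. No Hnf3a library reached the lowest pcDNA library, with an SD of 3.09 FPKM in the pcDNA group and 2.05 FPKM in the Hnf3a group. The log2 fold change was -0.31 ± 0.0308 (SE), a level 19.4% lower, and the edgeR adjusted p was 4.85e-05. By p-value Cxcl16 ranked 54. All 17 alternative fits kept it past the threshold, with log2 fold changes from -0.34 to -0.29 and adjusted p of at most 0.0059.

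Cxcl10, also known as IP-10, was one of the most abundant transcripts of these cells and changed least. Its level was 894.9, 859.2 and 863.5 FPKM in pcDNA replicates 1, 2 and 3, and 820.4, 820.9 and 791.2 FPKM in Hnf3a replicates 1, 2 and 3. The lowest pcDNA library and the highest Hnf3a library were 859.2 and 820.9 FPKM, so the groups were near each other without overlapping. The log2 fold change was -0.11 ± 0.0259 (SE), a level 7.61% lower, and the edgeR adjusted p was 0.0288. Only 0.241% of tested genes had a smaller standard error. In FPKM the difference of the means, 61.7, was nonetheless larger than that of Cxcl16 (23.0) or Cxcl11 (7.92). The call depended on the fit and was kept in 8 of 17 alternatives, over which the adjusted p ran from 0.00341 to 0.336 with the log2 fold change between -0.13 and -0.089. It was kept without Hnf3a replicate 1 (edgeR adjusted p 0.0145) and lost without Hnf3a replicate 2 (0.134) or 3 (0.066) and without pcDNA replicate 1 (0.197), 2 (0.114) or 3 (0.106).

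Cxcl9, also known as MIG, was barely transcribed. It had 36, 41 and 40 estimated counts in pcDNA replicates 1, 2 and 3 and 11, 30 and 21 in Hnf3a replicates 1, 2 and 3. With about 4 counts for each sequenced fragment, this amounts to 3 to 10 fragments per library, and Hnf3a replicate 1 was under the detection floor of 12 counts. The pcDNA libraries were within 5 counts of each other, whereas replicate 2 of the Hnf3a group held far more than replicate 1. Group means were 0.179 ± 0.00381 FPKM for pcDNA and 0.0874 ± 0.0385 FPKM for Hnf3a (mean ± SD, n = 3 each). The log2 fold change was -1.01 ± 0.421 (SE) with a 95% confidence interval from -1.92 to -0.10, and the edgeR adjusted p was 0.30 (unadjusted p 0.0322). It stayed over the threshold in all 15 alternatives that tested it, with adjusted p from 0.19 to 0.509. The difference in Cxcl9 thus did not pass after adjustment, and it rests on few fragments.

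The log2 ratios between the members were compared next, within each library. That of Cxcl10 to Cxcl11 was 4.99 to 5.10 in the pcDNA libraries and 5.37 to 5.46 in the Hnf3a libraries, a difference of 0.40 ± 0.049 (SE). For Cxcl10 to Cxcl16 it was 2.84 to 2.85 against 2.98 to 3.09, a difference of 0.20 ± 0.0315 (SE). For Cxcl11 to Cxcl16 it was -2.25 to -2.14 against -2.48 to -2.32, a difference of -0.20 ± 0.0592 (SE). In these 3 pairs the groups did not overlap, and the exact permutation test gave p = 0.1, the smallest value that 3 libraries against 3 allow (0.12 after adjustment over 6 pairs). The pairs of Cxcl9 with Cxcl10, Cxcl11 and Cxcl16 had differences of -1.03, -0.64 and -0.84 with standard errors of about 0.39 to 0.41, and exact permutation p-values of 0.1, 0.2 and 0.1. They rest in large part on Hnf3a replicate 1, without which they were -0.65, -0.26 and -0.48. The design cannot reach 0.05 in such a test.

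The partners of these chemokines come next. Of the receptors, Cxcr6, which binds CXCL16, had 4 to 21 counts per library and a log2 fold change of 0.073 with a 95% confidence interval from -1.41 to 1.55. The decoy receptors Ackr1 and Ackr3, which take up chemokines without signalling through G proteins, did not pass the filter, and no library had them above the floor. Cxcr3 was not analysed here. The 3 proteases analysed here, which are known to cut the ligands, were all expressed. Of them, 0 of 3 passed the edgeR test (0 of 3 also by DESeq2, and 2 of 3 had an unadjusted p under 0.05). Adam17, which sheds CXCL16 from stimulated cells, averaged 9.96 FPKM for pcDNA and 10.9 FPKM for Hnf3a, with a log2 fold change of 0.12 (edgeR adjusted p 0.133). Adam10, which sheds it constitutively, had a log2 fold change of 0.078 (adjusted p 0.41). Dpp4, which trims the N-terminus of the CXCR3 ligands, had one of 0.21 (adjusted p 0.26).

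Interferons are the classical inducers of CXCL9, CXCL10 and CXCL11. Of 18 tested genes for interferons, their receptors and signalling, 5 were lower in the Hnf3a group, 0 were higher and 13 did not pass. Over all tested genes, 2.13% were lower and 1.04% higher. The median log2 fold change of the 18 was -0.054, against 0.0008 over all tested genes. Ifnb1, interferon beta, had 106, 91 and 86 counts in pcDNA replicates 1, 2 and 3 and 8, 23 and 19 in the Hnf3a replicates. The groups were far apart, though the Hnf3a values lay near or under the floor. Its log2 fold change was -2.59 ± 0.357 (SE) (edgeR adjusted p 0.000888), past the threshold in all 17 alternatives. Ifngr2, a chain of the interferon gamma receptor, was 13.7, 14.1 and 14.1 FPKM in the pcDNA replicates and 10.3, 11.3 and 11.7 FPKM in the Hnf3a replicates, and it too stayed past the threshold in all 17 (log2 fold change -0.34). Ifnar2, Irf1 and Usp18 were lower by smaller amounts, with log2 fold changes of -0.25, -0.17 and -0.14, and kept the call in 10, 10 and 12 of 17 alternatives. The log2 fold change of Irf7, a transcription factor of the interferon response, was 0.014, and that of the kinase Jak1 -0.045. Ifng itself was not analysed here.

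Genes that interferons induce differed widely in the size of their change. Of 20 such genes, all tested, 8 were lower (2.13% of all tested genes), 0 were higher (1.04%) and 12 did not pass. The median log2 fold change of these 20 was -0.13. Without Hnf3a replicates 2 and 3, 4 of these 20 passed, as did 3 of the 18 signalling genes. Gbp5, an interferon-induced GTPase, was 9.46, 9.86 and 9.44 FPKM in the pcDNA replicates and 5.75, 6.24 and 6.25 FPKM in the Hnf3a replicates, a log2 fold change of -0.67. Gbp2 and Tap1, a peptide transporter for antigen presentation, had log2 fold changes of -0.30 and -0.19. Ccl5, a chemokine that is also on this list and its most abundant gene, was among the 8 lower ones, as was Ifit2 at -0.15. Isg15, Ifit3 and B2m, the next most abundant after Ccl5, did not pass. For Isg15 the log2 fold change was -0.046 with an interval from -0.15 to 0.058, for Ifit3 0.025 and for B2m -0.015. The log2 fold change of Cxcl11 thus fell between those of Gbp5 and Gbp2, and that of Cxcl10 near those of Gbp3 (-0.12) and Psmb8 (-0.13), of which Psmb8 did not pass.

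**Figure D2:**
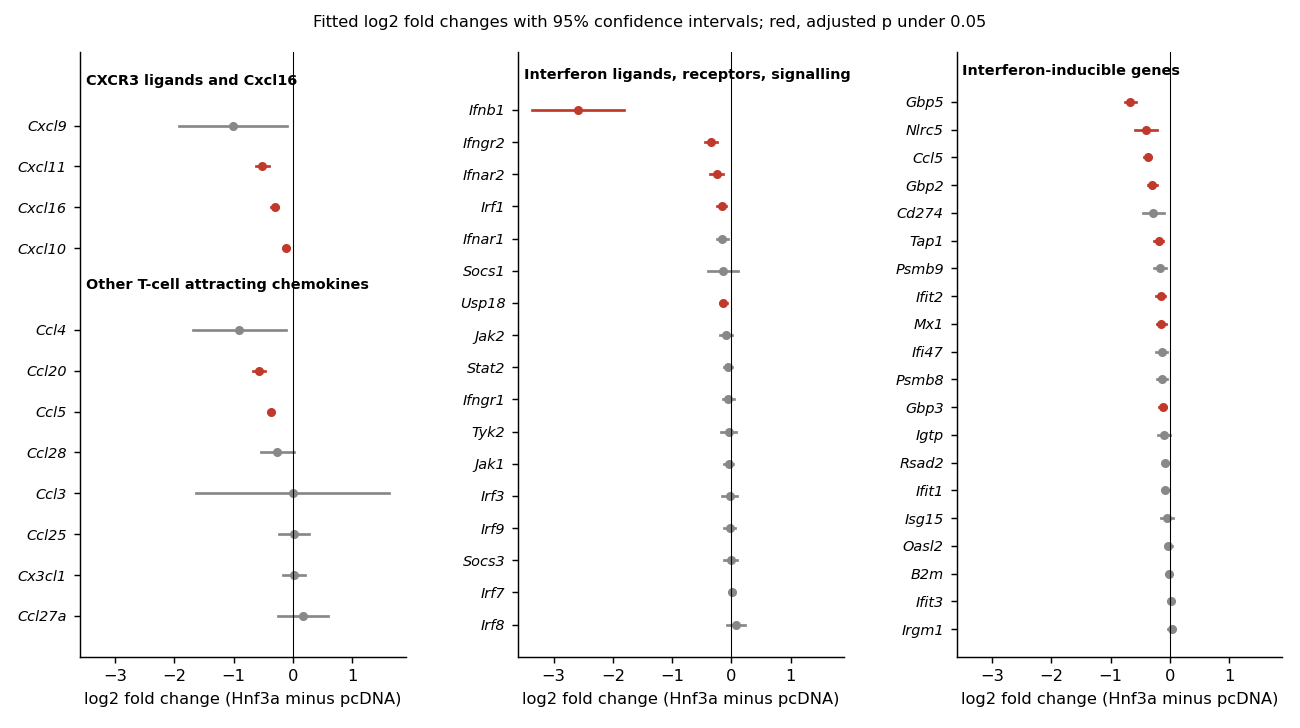
Fitted log2 fold change (Hnf3a minus pcDNA) with its 95% confidence interval for the 4 chemokines, other T-cell attracting chemokines, interferon pathway genes and interferon-inducible genes that were tested; red marks an adjusted p under 0.05 in edgeR. The red points lie left of 0 in all 3 panels, with Ifnb1 farthest at -2.59, while Irf7 and Jak1 sit close to 0. Of the signalling genes, 1 is not drawn.

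Other chemokines that draw T cells were set beside them. Of 8 tested, 2 were lower and 6 did not pass, with a median log2 fold change of -0.13. Over all tested genes, 2.13% were lower and 1.04% higher. Ccl5, a chemokine more abundant still than Cxcl10, was 1268, 1223 and 1255 FPKM in the pcDNA replicates and 978.8, 967.4 and 962.0 FPKM in the Hnf3a replicates, a log2 fold change of -0.37 ± 0.0253 (SE). Ccl20, the ligand of CCR6, had one of -0.57, and both stayed past the threshold in all 17 alternatives. Cx3cl1, the other chemokine with a membrane anchor besides CXCL16, averaged 3.46 FPKM for pcDNA and 3.54 FPKM for Hnf3a, with a log2 fold change of 0.022. Among 7 tested CXC chemokines of other receptors, 3 were lower and 1 was higher (2 and 0 without Hnf3a replicates 2 and 3). Cxcl1, Cxcl2 and Cxcl5, which attract neutrophils, had log2 fold changes of -0.80, -0.71 and -1.06, each larger in size than that of any called member. Cxcl1 was past the threshold in 16 of 17 alternatives, and Cxcl2 and Cxcl5 in all 17. Ppbp, Cxcl3 and Cxcl17 did not pass, with log2 fold changes of -0.12, -1.08 and 1.82 (edgeR adjusted p 0.294, 0.0862 and 0.188). The gene called higher was Cxcl15, with 24, 12 and 18 counts in the Hnf3a replicates and 2, 0 and 0 in the pcDNA replicates. It was close to the floor, passed the filter on low counts only through the Hnf3a group, and was past the threshold in 4 of 15 alternatives. The scavenger receptors that share oxidized lipoprotein as a ligand with CXCL16 showed 0 calls among 3 tested in edgeR, while 1 of them, Stab1 at 0.0247 FPKM in the pcDNA group, had an unadjusted p under 0.05 and passed in DESeq2. Scarb1, the most abundant of the 3 at 6.51 FPKM, had a log2 fold change of -0.039.

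The genes around the members were examined next. Within 200 kb of the CXCR3 ligand genes, 9 other genes were tested, with a median log2 fold change of -0.011. Of these, 1 was lower and 0 were higher, against 2.13% lower and 1.04% higher over all tested genes. Nup54 and Sdad1, which lie on either side of the cluster and encode a nuclear pore protein and a nucleolar protein, had log2 fold changes of -0.011 and -0.052. The lowered gene was U90926, at 307, 296 and 246 counts in the pcDNA replicates and 96, 140 and 119 in the Hnf3a replicates, a log2 fold change of -1.35 (edgeR adjusted p 0.000561). It lies 105939 bases from Cxcl9, with Sdad1 in between, and was past the threshold in all 17 alternatives. Near Cxcl16, 15 genes were tested and 0 passed in edgeR or DESeq2 (0 at an unadjusted p under 0.05), with a lowest adjusted p of 0.479 in edgeR and log2 fold changes from -0.58 to 0.30. Med11, a Mediator subunit gene 256 bases away, had one of 0.053.

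**Figure D3:**
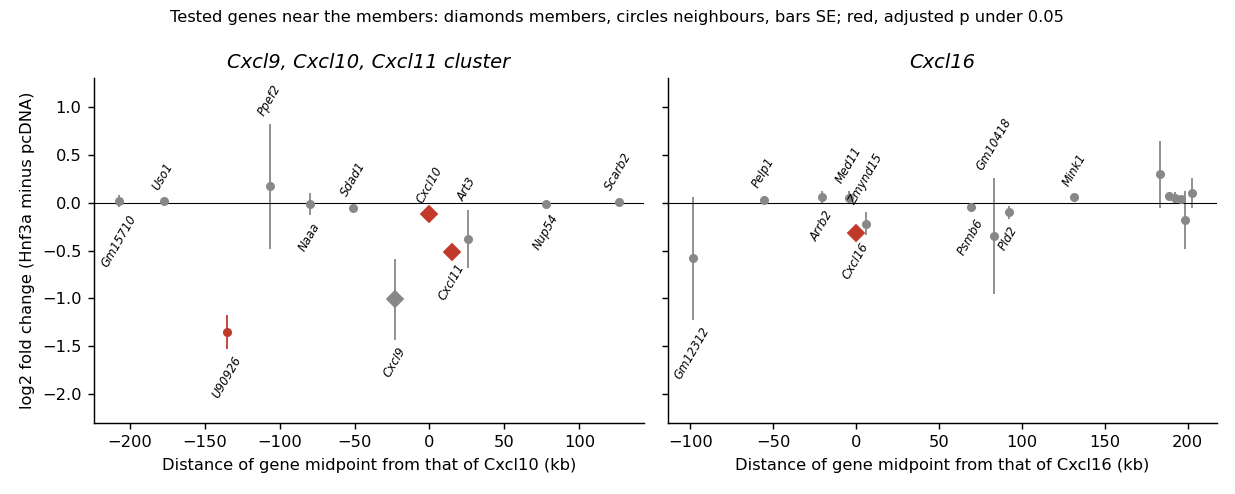
Log2 fold change (Hnf3a minus pcDNA) with SE of the tested genes within 200 kb of the CXCR3 ligand genes (left) and of Cxcl16 (right), against the distance of the gene midpoint in kb from Cxcl10 or Cxcl16; diamonds are the chemokines, circles their neighbours, and red marks an adjusted p under 0.05. Besides Cxcl10, Cxcl11 and Cxcl16, U90926 at -1.35 is the only red point.

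To see which other genes had a like profile, each tested gene with a mean of at least 1 FPKM was centred on its own mean log2 count scaled by library size and TMM and compared over the 6 libraries by the root mean square difference. Nearest to Cxcl16 were Smox, a polyamine oxidase (difference 0.0252, log2 fold change -0.31), and the interferon-activated genes Ifi211 (0.0294, -0.26) and Ifi203 (0.0311, -0.29). Nearest to Cxcl11 were Itga1, the integrin alpha 1 chain (0.0546, -0.52), the metalloprotease Adam8 (0.0562, -0.47) and Edn1, endothelin 1 (0.0572, -0.60). For Cxcl10 they were Rpp25l (0.0141, -0.13), Pttg1ip (0.016, -0.13) and Pvr (0.0166, -0.13), none of which passed the test. Between the members the difference was 0.103 for Cxcl10 and Cxcl16, 0.117 for Cxcl11 and Cxcl16 and 0.206 for Cxcl10 and Cxcl11. The nearest genes were picked as the smallest differences among 11922 candidates. That they lie nearer than the other members therefore says nothing about how alike the members are. These values describe 6 libraries of 2 groups and share their scaling.

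Of 12 markers of T and natural killer cells, the targets of these chemokines, 6 were analysed here. Cd3g, Cd4, Cd8a and Cd247 were not above the floor in any library. Lck and Trac were above it in all 6, at 6.38 and 1.002 FPKM in the pcDNA group and 6.25 and 0.941 FPKM in the Hnf3a group, and 0 of these 2 passed in edgeR or DESeq2 (0 at an unadjusted p under 0.05). Of 5 tested endothelial markers, 1 was higher and 1 was lower, against 1.04% higher and 2.13% lower over all tested genes. The higher one was Tek, with 11, 15 and 16 counts in the Hnf3a replicates and 0 in each pcDNA replicate. It thus passed the filter on low counts only through the Hnf3a group. The lower one was Cdh5 (log2 fold change -1.23). Tek was past the threshold in 4 of 14 alternatives and did not pass the filter on low counts without Hnf3a replicates 2 and 3, and Cdh5 was past the threshold in all 16 that tested it. Macrophages also make CXCL9, CXCL10 and CXCL16, and their markers were uneven. The summed level of the 13 macrophage and dendritic cell markers was 13.2, 18.0 and 19.9 FPKM in Hnf3a replicates 1, 2 and 3 and 14.5, 13.7 and 12.6 FPKM in the pcDNA replicates, most of it from Cd68, with C1qa at 0 in all 3 pcDNA libraries and in Hnf3a replicate 1. Of the 7 tested, 0 passed in edgeR or DESeq2, and 2 had an unadjusted p under 0.05. The summed fibroblast markers were 0.272, 8.11 and about 10 FPKM in the Hnf3a replicates and 0.126, 0.211 and 0.159 FPKM in the pcDNA replicates. Of 6 fibroblast markers tested, 0 passed in edgeR, 3 passed in DESeq2 as higher, and 5 had an unadjusted p under 0.05. The part of such cells in the chemokine levels was not tested. With Hnf3a replicates 2 and 3 both left out, Cxcl11 and Cxcl16 had log2 fold changes of -0.51 and -0.34. Cxcl10 had -0.089 and Cxcl9 -1.84 in that fit. The fit takes the lone Hnf3a library to vary like the pcDNA libraries, so it cannot show what such cells contributed.

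**Figure D4:**
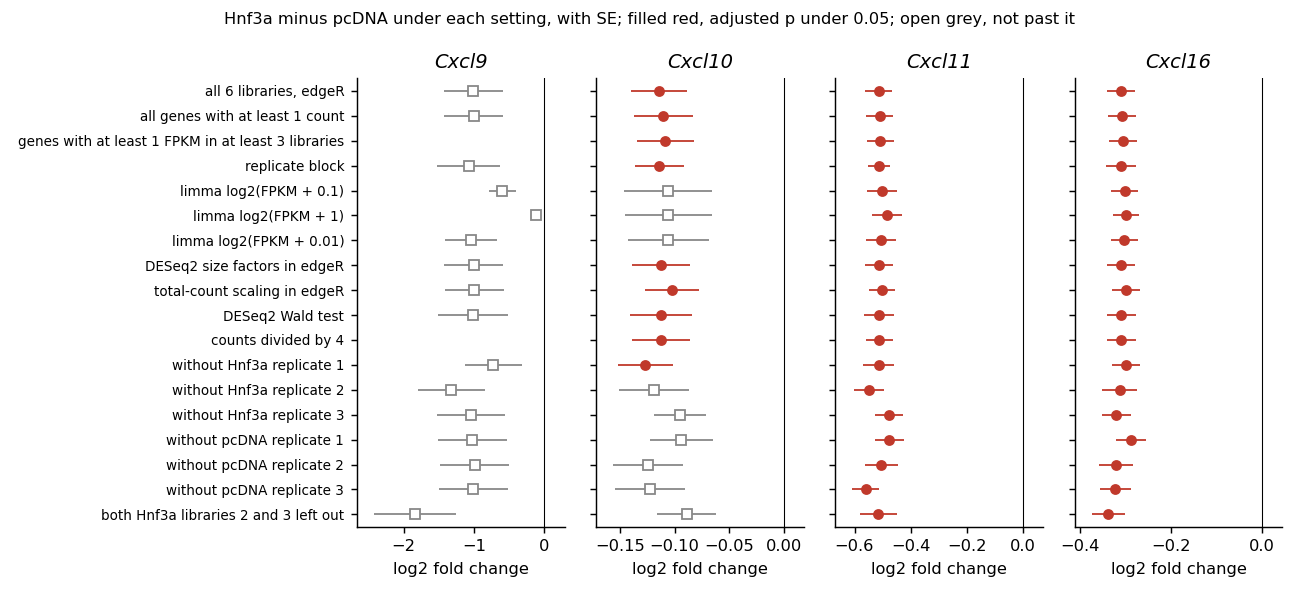
Log2 fold change (Hnf3a minus pcDNA) with SE of each chemokine under every setting; filled red circles mark an adjusted p under 0.05 and open grey squares one over it, and each panel has its own axis. Cxcl11 and Cxcl16 are red in every row, Cxcl9 in none, and Cxcl10 in the fit of all 6 libraries and 8 of the 17 alternatives.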

How the data were processed

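RNA was sequenced from 6 TKPTS samples, 3 per group, with groups and replicate numbers taken from the sample titles. The authors deposited a table of estimated counts and FPKM per gene and library. The submitters' processing notes name mm10, cutadapt 1.9, HISAT2 2.0.4, UMI-tools, StringTie 1.3.4d, DESeq2 and edgeR, without roles. Strand setting, annotation and duplicate removal are not given in the sources used here. GRCm38 annotation was used, since 25765 of the 29514 genes also in GENCODE vM21 matched it exactly in position. In every library 4 was a more frequent count than 3 or 5, so 1 fragment was taken as about 4 counts and the detection floor as 12 counts (0.169 to 0.198 CPM), which covers counting error only.

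The estimated counts were whole and were tested as deposited by the authors. Genes were filtered with filterByExpr, scaled by TMM and tested two-sided with edgeR 4.0.16 (robust glmQLFit and glmQLFTest, no covariate; R 4.3.3) and adjusted by Benjamini and Hochberg over 17824 genes at a threshold of 0.05. A standard error (SE) is the size of the log2 fold change divided by the root of its F value. Levels are the FPKM values deposited by the authors. Ratios between members used log2 FPKM and exact permutation tests (scipy 1.17.1). Alternatives were other filters, a replicate block, leaving out each library, limma 3.58.1 on log2(FPKM + 0.1), with pseudocounts of 1 and 0.01 as well (fold changes are then on the scale with the pseudocount, which shrinks those of low genes), DESeq2 size factors, total-count scaling, the DESeq2 1.42.0 Wald test and counts divided by 4. Leaving out Hnf3a replicates 2 and 3 together was added after the data were seen. The edgeR, limma and DESeq2 steps were tested on simulated data with known changes. Same-numbered libraries deviated together by correlations of -0.0411, -0.0102 and 0.00998 over all tested genes. These values gave no sign of pairing by number but cannot exclude a shared culture or day.

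The members and gene lists were chosen with earlier results of these data known. The genes named were the members, Foxa1, the genes of the lists, tested genes within 200 kb of a member, and for each member above the floor in every library the 3 genes of nearest profile. Of the interferon signalling list, 1 gene is counted but not reported here by name.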

Additional observations from a re-analysis of the deposited data

How the results depend on the processing

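Cxcl11 and Cxcl16 were lower and past the threshold in all 17 alternatives, and Cxcl9 kept its direction and stayed over it in the 15 in which it was tested. Cxcl9 was left out when a gene needed 1 FPKM or more in 3 libraries and with counts divided by 4, and these gave no value for it. Cxcl10 kept its direction in all 17 but lost the call in 9. Its log2 fold change was -0.11 in each of the limma fits (-0.105779, -0.105665 and -0.10579 with pseudocounts of 0.1, 1 and 0.01; adjusted p 0.336, 0.335 and 0.30), from -0.13 to -0.094 over the 6 fits that each left out a library, and -0.089 without both Hnf3a replicates 2 and 3 (added after seeing the data). The cause was not tested. Fewer libraries were fitted in the last 2 kinds, and the call was kept in 1 of the 6 fits that each left out a library. Over the fits without a library, Cxcl9 ran from -1.32 to -0.73, Cxcl11 from -0.56 to -0.48 and Cxcl16 from -0.32 to -0.29. All 6 differences in ratio kept their sign when computed from counts or without a library, and moved by less than the larger of the SDs of the groups. Without Hnf3a replicate 1 those of Cxcl9 to Cxcl10, Cxcl11 and Cxcl16 came to -0.65, -0.26 and -0.48 (from -1.03, -0.64 and -0.84), and that of Cxcl10 to Cxcl16 ran from 0.17 to 0.23 over the fits without a library, a move larger than the pcDNA SD of 0.00589.

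The count of genes past the threshold, 565 (186 higher, 379 lower), fell to 236 (57 higher, 179 lower), 231 (53 and 178) and 245 (65 and 180) in the limma fits with pseudocounts of 0.1, 1 and 0.01, and was highest in DESeq2, at 819 (327 higher, 492 lower). It was 322 without Hnf3a replicates 2 and 3, 79 when a log2 fold change of 1 or more in size was also required (44 higher and 35 lower, so that higher genes were then the majority), and 263 to 643 over the fits without a library (263 without Hnf3a replicate 2 and 286, 267 and 349 without pcDNA replicates 1, 2 and 3). With the replicate block it was 463, and the block changed the call of none of the 4 members. No label says whether the replicate numbers pair the libraries. Few fragments limit Cxcl9, and 3 libraries a group limit every exact test to 0.1.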
